A study of Dunaliella salina with 18 samples.

Results

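The early change in the H2L arm of a salinity experiment on Dunaliella salina was measured as the difference between 3 libraries taken at 4h and 3 taken at 0h, which are 6 of the 18 libraries of the study. The members were chosen by title, H2L_4h and H2L_0h, and all transcripts of the table were used. Every culture was of strain CCAP 19/3, and total RNA was sequenced. The H2L 4h and 0h groups are compared here, and H2L 24h and the L2H arm at 0h, 4h and 24h serve as further reference. The title H2L and the condition field, which reads low-salt to high-salt for these samples, name opposite directions, so the arm is called by its title and no direction is assigned. The 18 libraries hold no culture kept at its starting salinity and sampled at 4h, so an effect of the shift and of the 4h that had passed cannot be told apart.

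Dunaliella salina is a single-celled green alga without a rigid cell wall, and it lives in water from moderate to very high salinity. When salinity changes, the cell first swells or shrinks and then regains its volume by making or removing glycerol, the compatible solute that balances the salt outside. Ion transport across the plasma membrane, photosynthesis and carotenoid storage are other processes for which the alga is known under salt. None of these can be followed by name here: the table pairs no gene name with its assembled sequences, and 0 of its identifiers matched the 16683 genes of the RefSeq table for assembly Dunsal1 v. 2, which describes strain CCAP 19/18. Transcripts are therefore described by abundance, by shared identifier and by their behaviour in the other groups. An identifier such as c49062_g1_i1 has 3 parts, and sequences that share the first part (a component) come from the same group of assembled sequences and may share reads.

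The table lists 43236 transcripts, of which 34166 (79.0%) reached a value of 1 in 3 or more libraries and were tested. Totals of the 6 libraries lay between 791289 and 842410 abundance units, the number of reads behind them is unknown, and the labels do not say whether the 3 libraries of a group came from separate cultures. Libraries 1 and 2 were much closer to each other than to library 3. In both arms the titles give library 3 another kind of tag than libraries 1 and 2, and this tag differs between the arms. What the tags mean is not stated. In transcripts with a mean of at least 1000 over the 6 libraries, libraries 1 and 2 had a log2 ratio whose SD was 0.094 at 4h and 0.106 at 0h, against 0.349 to 0.353 at 4h and 0.418 to 0.431 at 0h for either of them with library 3. Because libraries 1 and 2 may not be independent, calls are also given with their mean counted as 1 sample. In the L2H arm library 3 of 0h and library 3 of 4h were more like each other than like their own groups. Pearson's r across transcripts, as a description, was 0.967 against 0.945 to 0.951. The counts and named differences that use the L2H arm are also given without these 2 libraries. L2H 0h and 4h then hold only libraries 1 and 2, which may not be independent, so lower p-values there are no stronger support.

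At 4h the H2L cultures had changed in both directions, mostly by less than 2-fold. Limma called 4104 of 34166 transcripts (12.0% of all tested) at a Benjamini-Hochberg adjusted p under 0.05, of which 2218 (6.49%) were higher at 4h and 1886 (5.52%) lower. The median log2 change was 0.90 for those higher and -0.86 for those lower, against 0.04 over all transcripts tested. Of the transcripts called, 911 were higher and 682 lower by at least 2-fold on the log2(value + 1) scale, which is 4.66% of those tested. At 4-fold the numbers were 60 and 36, and at 8-fold 4 and 2. Every tested transcript past 4-fold was also called. With libraries 1 and 2 counted as 1 sample limma called 497 transcripts (1.45%), 275 higher and 222 lower, and 495 of these were among the 4104. Of the 96 transcripts past 4-fold, 50 of the 60 higher and 30 of the 36 lower were called both ways. Leaving out H2L 4h library 1 or library 2 brought the 4104 down to 2247 or 2396, and leaving out H2L 0h library 1 or library 2 to 2673 or 2681. It was 5071 without library 3 of L2H 0h and of L2H 4h, which enter only through the pooled spread. The 3 libraries of one group did not overlap those of the other in 3999 of the 4104 (97.4%), against 29.9% of all transcripts tested. The calls were made from these same libraries, so this describes the calls and is no separate support.

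**Figure D1:**
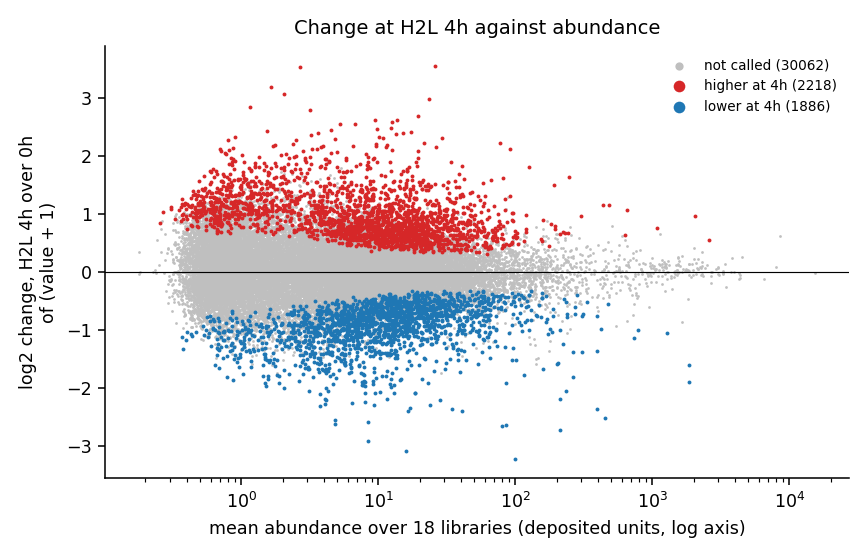
Each point is 1 of the 34166 tested transcripts, with its mean abundance over the 18 libraries in deposited units on a log axis and its log2 change of (value + 1) at H2L 4h over 0h. The 2218 transcripts called higher are red and the 1886 called lower are blue, and most of them lie within 1 log2 unit of 0.

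The 4 transcripts described in full are those with the largest gains and losses of abundance among transcripts that were called both ways, changed at least 2-fold and did not overlap between the groups. This rule was met by 247 transcripts that rose and 199 that fell. The 2 largest gains belonged to the same component. The transcript c49062_g1_i1 stood at 294.2, 312.0 and 418.5 units in the H2L 4h libraries, against 87.6, 92.4 and 156.7 units in the H2L 0h libraries. The lowest 4h library was well above the highest 0h library, and library 3 was the highest in both groups. Its mean was 341.6 ± 67.2 at 4h and 112.2 ± 38.6 at 0h (SD, n = 3 each), a log2 change of 1.63 (SE 0.20, limma adjusted p = 6.19e-05). The transcript c49062_g2_i1 gave 257.4, 259.3 and 391.6 units at 4h, against 89.7, 89.0 and 142.7 units at 0h. The groups again did not overlap, library 3 was again the highest in each, and the log2 change was 1.5 (SE 0.19, limma adjusted p = 7.95e-05). All 4 tested transcripts of component c49062 were called higher, with log2 changes of 1.5 to 1.81. They may share reads, so they are not 4 separate observations.

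The largest loss was that of c48029_g1_i1, one of the abundant transcripts of the culture. It stood at 573.0, 595.7 and 712.3 units at H2L 4h, against 2519, 2388 and 2077 units at H2L 0h. All 4h libraries were below all 0h libraries, and library 3 lay nearest to the other group at both times. Its mean was 627.0 ± 74.7 at 4h and 2328 ± 226.9 at 0h (SD, n = 3 each), a log2 change of -1.89 (SE 0.27, limma adjusted p = 0.000292). The transcript c46759_g1_i1 fell further in proportion. It gave 43.8, 44.3 and 79.2 units at 4h, against 301.9, 299.4 and 331.6 units at 0h. The 0h libraries lay close together, library 3 was the highest at 4h, and the log2 change was -2.51 (SE 0.23, limma adjusted p = 6.77e-06). Each of these 4 transcripts was called, with its direction kept, in all 20 alternative settings of the fit. The averaged setting is among them and was part of the naming rule, so this is no separate support. With libraries 1 and 2 averaged limma's adjusted p was 0.02 for c49062_g1_i1 and 0.0222 for c49062_g2_i1. It was 0.0473 for c48029_g1_i1 and 0.00758 for c46759_g1_i1.

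**Figure D2:**
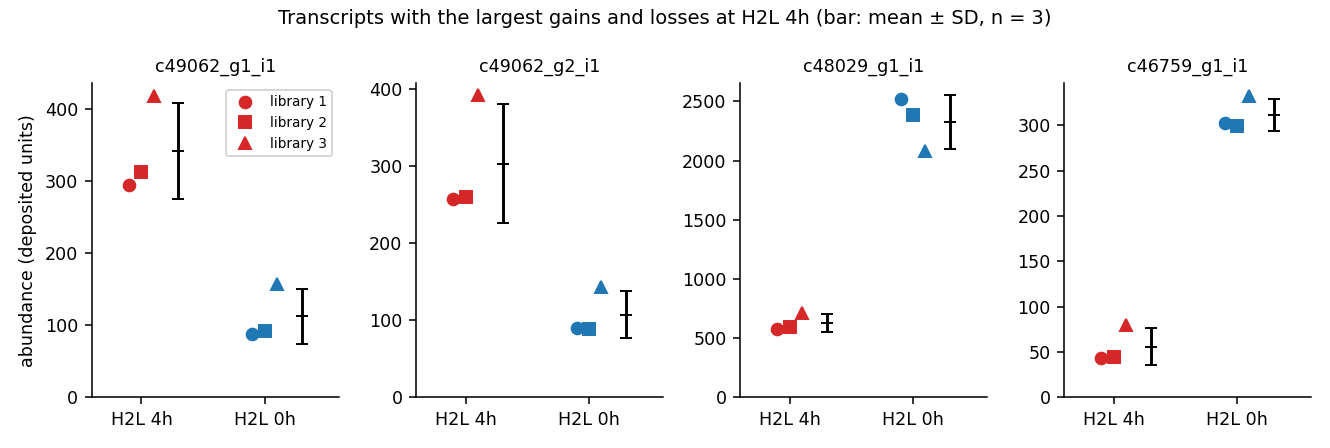
Abundance in deposited units of the 2 transcripts with the largest gain and the 2 with the largest loss, for libraries 1 (circle), 2 (square) and 3 (triangle) at H2L 4h (red) and 0h (blue), with the mean ± SD (n = 3) beside each group. The groups do not overlap for any of the 4, with 573.0 to 712.3 units at 4h and 2077 to 2519 at 0h for c48029_g1_i1.

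The share of transcripts called differed between classes of abundance. Of the 10144 transcripts with a mean of 10 to 100 units over the 18 libraries, 1882 (18.6%) were called, 973 higher and 909 lower. The share was 11.2% of the 15594 transcripts at 1 to 10 units and 4.95% of the 7559 under 1 unit. Among the 747 transcripts at 100 to 1000 units 96 (12.9%) were called, and those that fell outnumbered those that rose, 69 against 27. Among transcripts under 1 unit those that rose were more numerous, 298 against 76. These 2 inequalities kept their direction under quantile normalization (68 lower and 43 higher, 233 higher and 121 lower) and under upper-quartile scaling (64 and 27, 303 and 85). Few of these calls were also made with libraries 1 and 2 averaged, 33 of 374 under 1 unit and 14 of 96 at 100 to 1000 units. In the classes from 1 to 100 units the majority did not keep its direction: from 10 to 100 units quantile normalization gave 935 higher and 1103 lower. Of the 122 transcripts of at least 1000 units 6 (4.92%) were called, 3 higher and 3 lower.

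The spread between libraries also differed between these classes. The median SD of the log2 value within the H2L groups was 0.402 at 4h and 0.383 at 0h for transcripts under 1 unit, and 0.177 at 4h and 0.168 at 0h for those of 10 to 100 units. The part of this spread in the shares called was not tested. Of the transcripts that were higher at 4h, 475 had a mean under 1 unit at 0h and 60 were listed at 0 in every 0h library. Of those that were lower, 229 had a mean under 1 unit at 4h and 33 were listed at 0 in every 4h library. Most of these transcripts were low at both times. Only 2 of the 475 had a mean of at least 10 units at 4h, and only 2 of the 229 had one at 0h. The same counts over all transcripts tested were not made, so these numbers show no trait of the transcripts called.

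**Figure D3:**
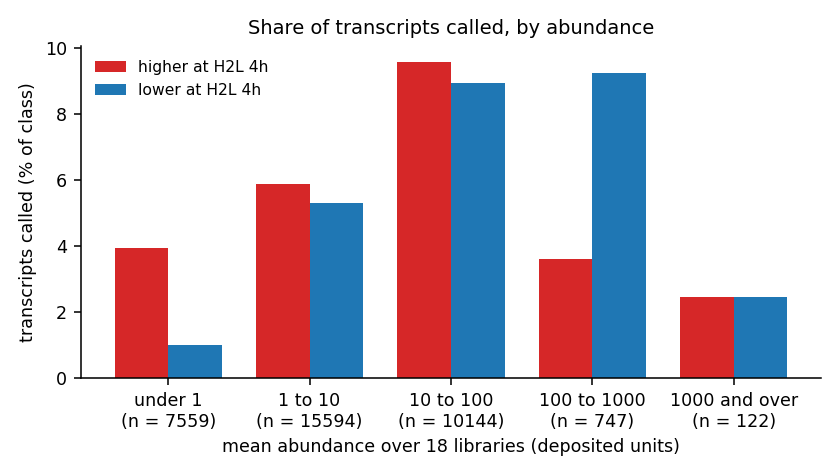
Share of the tested transcripts in each class of mean abundance (deposited units, 18 libraries) that was called higher (red) or lower (blue) at H2L 4h. The share is highest at 10 to 100 units in the higher direction, 9.59%, and at 100 to 1000 units in the lower direction, 9.24%.

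The transcripts that rose took up a larger part of the library at 4h. Together the 2218 transcripts held 8.30%, 8.17% and 8.09% of the summed abundance in the H2L 4h libraries, against 4.51%, 4.43% and 4.43% in the H2L 0h libraries. The 1886 transcripts that fell held 3.31%, 3.41% and 3.74% at 4h, against 6.57%, 6.50% and 7.11% at 0h. These sums describe transcripts chosen for this change and are no test of it. All 4104 together held 11.6% to 11.8% of the abundance at 4h and 10.9% to 11.5% at 0h.

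The concentration of the library in its most abundant transcripts differed by less than the libraries did among themselves. The 10 most abundant transcripts held 8.53%, 8.36% and 9.33% of a library at 4h and 8.37%, 8.40% and 7.17% at 0h (two-sided exact permutation p = 0.3, adjusted p = 0.6 over 4 measures). Transcripts listed at 0 numbered 3969, 3968 and 5479 at 4h and 4813, 4815 and 6045 at 0h (two-sided exact permutation p = 0.3, adjusted p = 0.6). Each library number had fewer at 4h, but library 3 at 4h had more than libraries 1 and 2 at 0h. With 3 libraries against 3 this exact permutation test cannot go below p = 0.1.

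Libraries that were not used for the calls were read next. With library 3 left out of every group, 7924 transcripts (23.2%) were called from libraries 1 and 2. The change in library 3 had the same sign in 6383 of them (80.6%), against 61.9% of all transcripts tested. By size of the change in libraries 1 and 2, library 3 agreed in 75.3% of 2831 transcripts under 1.5-fold, 83.3% of 2896 between 1.5-fold and 2-fold, and 82.9% of 2065 between 2-fold and 4-fold. It agreed in 126 of 132 (95.5%) that changed by at least 4-fold. For these 132 the median log2 change along the direction called was 2.26 in libraries 1 and 2 and 1.70 in library 3. By mean abundance, library 3 agreed in 64.9% of 459 transcripts under 1 unit and 81.0% of 2873 at 1 to 10 units. It agreed in 82.1% of 4156 at 10 to 100 units, 79.9% of 413 at 100 to 1000 units and 69.6% of 23 at 1000 and over. Among the transcripts called lower 88.9% were lower in library 3 too, and among those called higher 74.1% were higher. The median change over all transcripts was 0.07 in libraries 1 and 2 and -0.02 in library 3, and its part in these 2 shares was not tested.

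The other libraries were left out in the same way. With library 1 left out of every group 336 transcripts (0.983%) were called, and 329 of them (97.9%) had the same sign in library 1, against 71.0% of all transcripts. With library 2 left out 367 (1.07%) were called, and 358 (97.5%) had the same sign in library 2, against 69.6% of all transcripts. In both cases the closely similar partner library took part in the calls. In the 336 transcripts the median log2 change along the direction called was 1.54 in the libraries used and 1.41 in library 1.

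**Figure D4:**
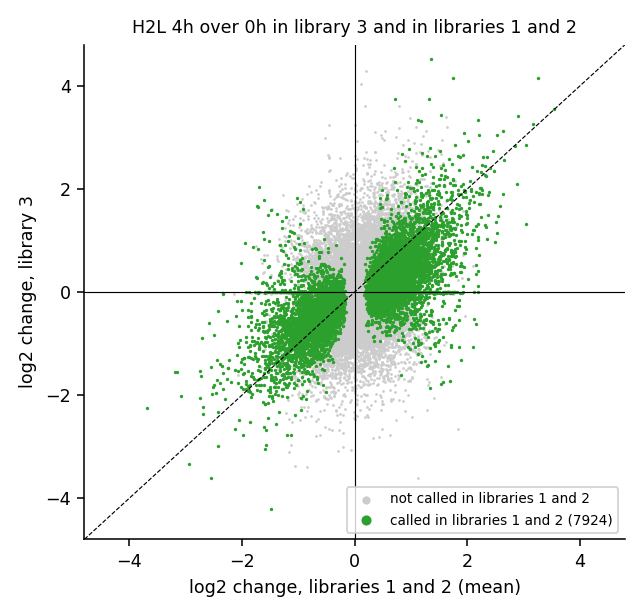
Log2 change of (value + 1) at H2L 4h over 0h in library 3 (vertical) against the mean change in libraries 1 and 2 (horizontal), for all 34166 tested transcripts; the dashed line marks equal change. The 7924 transcripts called from libraries 1 and 2 are green, and 80.6% of them have the same sign in library 3.

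Calls were also counted by component. Of 5422 components with at least 2 tested transcripts, 509 had at least 2 that were called. In 214 of these all calls were higher and in 201 all were lower, which together is 81.5%, and in the other 94 some were higher and some lower. Every tested member was called higher in 11 components of at least 3 members and called lower in 6. How many components had at least 3 tested members was not counted, so no share can be given for these. Members that were not called are not in the count of directions, and no value expected by chance was computed. Shared reads can make members of a component alike, and their part in this count was not tested.

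At 24h the same transcripts, which were chosen for their change at 4h, stood closer to their 0h level. The 2218 that were higher at 4h held 5.06%, 5.04% and 4.99% of the H2L 24h libraries, and the 1886 that were lower held 5.77%, 5.76% and 5.92%. Their median log2 difference between 24h and 0h was 0.30 for the first set and -0.29 for the second, against -0.02 over all transcripts. Both comparisons with 0h use the same 0h libraries, and the titles carry another tag at 24h than at 0h and 4h, so a difference of the tag and of the time cannot be told apart at 24h. The transcripts named above did not all follow this course. At H2L 24h c49062_g1_i1 was still at 373.2, 380.1 and 344.0 units, above every 0h library (log2 change from 0h 1.75, limma adjusted p = 0.000185). The transcript c46759_g1_i1, which had fallen at 4h, stood at 571.0, 582.6 and 811.6 units at 24h, above every 0h library (log2 change from 0h 1.05, limma adjusted p = 0.013). The transcript c48029_g1_i1 stood between its 4h and 0h levels at 24h, with 1382, 1374 and 887.2 units.

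The same transcripts were read at 4h in the L2H arm, which shares no library with the H2L comparison. The calls in both arms still use the same pooled estimate of the spread. The 2218 transcripts that were higher at H2L 4h had a median log2 change of -0.09 at L2H 4h over 0h. Of them 8 (0.361%) were called higher there and 48 (2.16%) lower, against 1.17% and 1.07% of all transcripts. Without library 3 of L2H 0h and of L2H 4h, 146 (6.58%) were called higher and 228 (10.3%) lower, against 7.81% and 6.23% of all transcripts. The 1886 that were lower at H2L 4h had a median log2 change of 0.02 at L2H 4h over 0h. Of them 42 (2.23%) were called higher and 20 (1.06%) lower, and without the third libraries 229 (12.1%) and 146 (7.74%). Averaging libraries 1 and 2 left limma with 0 calls in the L2H arm at 4h, where 1810 transcripts had an unadjusted p under 0.05.

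The difference between the arms was tested directly, as the H2L change minus the L2H change at 4h. Limma called 3484 transcripts (10.2%), 1814 positive (5.31%) and 1670 negative (4.89%). The count was 5854 without library 3 of L2H 0h and of L2H 4h, and averaging libraries 1 and 2 left 14, with 4506 under an unadjusted p of 0.05. Leaving out library 1 or library 2 changed it to 2219 or 2280 at H2L 4h. At L2H 4h the counts were then 1983 or 2080, and at L2H 0h 1845 or 1786. A fit of only the groups compared called 2418, and 784 with same-numbered libraries of each arm as a block. The labels do not state whether the numbers pair the samples. All 4 transcripts named above were called for the difference between the arms. They were chosen for a large H2L change, which is part of this difference, so these calls are no separate support. At L2H 4h over 0h the log2 change was -0.13 for c49062_g1_i1, -0.25 for c49062_g2_i1, 1.11 for c48029_g1_i1 and -0.85 for c46759_g1_i1. Limma's adjusted p for these L2H changes was 0.796, 0.526, 0.0439 and 0.0615. The transcript c46759_g1_i1 thus had a negative mean change in both arms, not called in L2H. Both this L2H change and that of c48029_g1_i1 lay in libraries 1 and 2. For c48029_g1_i1 these stood at 1017 and 960 units at L2H 0h and at 3220 and 2985 at 4h, and library 3 at 2238 and 2296. For c46759_g1_i1 they stood at 817 and 786 units at L2H 0h and at 345 and 323 at 4h, and library 3 at 494 and 486. The log2 difference was 1.76 for c49062_g1_i1, 1.75 for c49062_g2_i1, -3.0 for c48029_g1_i1 and -1.66 for c46759_g1_i1, with limma adjusted p of 0.00146, 0.00115, 0.000377 and 0.00574. Without library 3 of L2H 0h and of L2H 4h the 4 differences were 1.71, 1.81, -3.54 and -1.25. All were called (limma adjusted p = 0.00142, 0.000806, 5.29e-07 and 0.00916). The counts and p-values of that setting rest on libraries 1 and 2 alone at L2H 0h and 4h, which may not be independent. With libraries 1 and 2 averaged none of these 4 differences was called (adjusted p = 0.111 to 0.170).

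The largest positive differences under the naming rule belonged to transcripts that were higher at 4h in H2L and lower at 4h in libraries 1 and 2 of L2H. The transcript c43988_g1_i2 stood at 42.9, 43.3 and 27.7 units at H2L 4h, against 4.34, 4.42 and 2.96 units at H2L 0h. In the L2H arm it gave 1.25, 0.48 and 17.4 units at 4h, against 64.5, 71.5 and 12.7 units at 0h. In L2H libraries 1 and 2 were lower at 4h, and library 3 was slightly higher. The log2 difference between the arms was 6.33 (SE 0.98, limma adjusted p = 0.00136). The transcript c42620_g1_i1 gave 143.2, 144.1 and 135.2 units at H2L 4h, against 24.9, 23.9 and 52.4 units at H2L 0h. At L2H 4h it gave 17.9, 18.2 and 79.9 units, against 172.4, 152.8 and 71.3 units at L2H 0h. Library 3 again moved little in L2H, and the log2 difference was 4.14 (SE 0.63, limma adjusted p = 0.00121). Without library 3 of L2H 0h and of L2H 4h these differences were 8.22 and 5.23. With libraries 1 and 2 averaged neither was called (limma adjusted p = 0.136 and 0.141). With the block of same-numbered libraries limma's adjusted p was 0.0513 for c43988_g1_i2, which lost its call, and 0.0466 for c42620_g1_i1.

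The most negative differences under the rule lay in libraries 1 and 2 of L2H more than in H2L. The transcript c48753_g2_i1 stood at 38.9, 41.6 and 33.5 units at H2L 4h, against 95.9, 95.2 and 35.7 units at H2L 0h, and this change was not called (limma adjusted p = 0.753). The transcript c30669_g1_i1 gave 27.8, 24.6 and 20.5 units at H2L 4h, against 29.3, 27.3 and 27.0 units at H2L 0h (limma adjusted p = 0.946). In L2H libraries 1 and 2 c48753_g2_i1 reached 1221 and 1157 units at 4h, against 0.54 and 0.83 at 0h, while the values of library 3 were 481.4 at 4h and 546.7 at 0h. The log2 differences of -7.10 and -6.19 (limma adjusted p = 0.0319 and 0.0436) were lost in 12 and 16 of 25 alternatives, with adjusted p up to 0.405 and 0.423. Without library 3 of L2H 0h and of L2H 4h the differences were -10.3 for c48753_g2_i1 and -9.14 for c30669_g1_i1.

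One relation appeared between the H2L change at 4h and the L2H change at 24h, which also share no library. The calls of both use the same pooled estimate of the spread, so a transcript of small spread is called more readily in both. The shares over all transcripts are not adjusted for this. Of the 1886 transcripts that were lower at H2L 4h, 97 (5.14%) were called higher at L2H 24h over 0h, against 0.861% of all transcripts, and 10 (0.530%) were called lower, against 0.527%. The tags in the titles also differ between L2H 24h and 0h. The 97 are 33.0% of the 294 transcripts called higher at L2H 24h. The median log2 change of the 1886 at L2H 24h was 0.21, against 0.04 over all transcripts. Of the 221 that were lower at H2L 4h and called both ways, 36 (16.3%) were called higher at L2H 24h and 1 lower, and without library 3 of L2H 0h and of L2H 4h the numbers were 71 (32.1%) and 4. For all 1886 without those libraries, 334 (17.7%) were called higher, against 5.18% of all transcripts, and 49 (2.60%) lower, against 2.8%. These 334 included all 97 and were 18.9% of the 1769 transcripts then called higher at L2H 24h. For the 2218 transcripts that were higher at H2L 4h, 2 (0.0902%) were called higher at L2H 24h, against 0.861% of all transcripts, and 25 (1.13%) lower, against 0.527%. Without those libraries 45 (2.03%) were called higher and 130 (5.86%) lower, against 5.18% and 2.8% of all transcripts. Averaging libraries 1 and 2 left limma with 0 calls at L2H 24h. There 2218 transcripts (not the set of the same size above) had an unadjusted p under 0.05. Without library 3, L2H 0h holds only libraries 1 and 2, so the larger counts of that setting rest on samples that may not be independent.

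**Figure D5:**
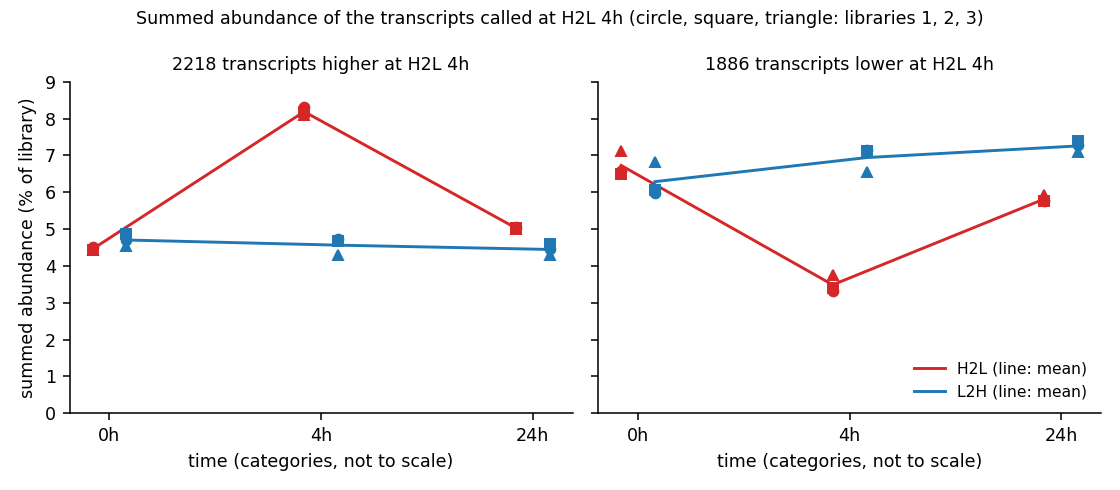
Summed abundance, as a percentage of the library, of the transcripts called higher (left) and lower (right) at H2L 4h, at 0h, 4h and 24h in the H2L (red) and L2H (blue) arms; symbols are libraries and lines join the means of 3. The transcripts that fell held 3.31% to 3.74% at H2L 4h, and in L2H they held 7.10% to 7.38% at 24h, against 5.98% to 6.81% at 0h. Libraries 1, 2 and 3 of L2H stood at 7.14%, 7.13% and 6.55% at 4h, against 5.98%, 6.07% and 6.81% at 0h.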

How the data were processed

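The submitters' processing notes name RSEM, Bowtie2 and FastQC without versions. The authors deposited 1 table of a signal per transcript, which was taken here as an abundance already scaled by length and sequencing depth. Its exact scale (TPM or FPKM) and its depth are not known from the sources used here. Columns were matched by title, and 0 belonged to no sample. Values were taken as log2(value + 1), which understates changes of low transcripts. All 18 libraries entered 1 fit of group means (limma 3.58.1, R 4.3.3) with an intensity trend for the prior variance; two-sided p-values were adjusted over 34166 transcripts by Benjamini-Hochberg. Transcripts were named for the largest gain or loss of group mean among those called with libraries 1 and 2 separate and averaged, at least 2-fold and without overlap. Between the arms they were named for the largest difference among those with a group mean of at least 10, in which all H2L libraries moved one way and no L2H library moved that way by 0.5 or more. Members, rules and alternatives were chosen with earlier results of these data known. Lists of gene families could not be applied. In 3 simulated runs of H2L 4h against 0h over 34166 transcripts the test recovered 29.3% of 1.5-fold, 70.0% of 2-fold and 96.7% of 4-fold changes among the more abundant transcripts, and 5.12% of its calls were false. Noise was simulated independently, so the likeness of libraries 1 and 2 is not covered. Library measures were compared with exact permutation tests.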

Additional observations from a re-analysis of the deposited data

Results flagged for a closer look

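The change at 4h differed between the H2L and L2H arms in 3484 transcripts, by limma's test of the difference itself. Among the transcripts named, the log2 difference (H2L change minus L2H change) was 1.76 for c49062_g1_i1, 1.75 for c49062_g2_i1, 6.33 for c43988_g1_i2 and 4.14 for c42620_g1_i1. It was -3.0 for c48029_g1_i1, -1.66 for c46759_g1_i1, -7.10 for c48753_g2_i1 and -6.19 for c30669_g1_i1. The last 2 were not called in H2L on their own. With libraries 1 and 2 averaged none of these 8 differences was called, and 14 transcripts were called in all. The 8 were named for this difference or for the H2L change that is part of it, so their calls are no separate support. Without library 3 of L2H 0h and of L2H 4h all 8 were called. The differences were then 1.71 and 1.81 for the c49062 transcripts, and 8.22, 5.23, -3.54, -1.25, -10.3 and -9.14 for the others in the order above. L2H 0h and 4h hold only libraries 1 and 2 in that setting, and these may not be independent.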

How the results depend on the processing

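The count called at H2L 4h against 0h (4104, with 2218 higher, 1886 lower and 1593 past 2-fold) moved by over 1.5 times under several settings. Averaging libraries 1 and 2 gave 497 calls, 275 higher, 222 lower and 461 past 2-fold, and using only them gave 7924, 4486 and 3438. When the fit held only the groups compared, the counts were 2230, 1180 and 1050, and with array weights 8665, 5053 and 3612. Past 2-fold, a minimum value of 10 left 690 and a pseudocount of 5 left 357. Leaving out 1 library gave 2247 to 4319 calls, 1134 to 2618 higher, 1113 to 1701 lower and 1158 to 1938 past 2-fold. The share called higher was 54.0%, 47.8% after quantile normalization and 52.0% after scaling to the upper quartile of values above 0. The difference between the arms (3484) was called in 8996 transcripts with only libraries 1 and 2, 14 with them averaged, 5854 without library 3 of L2H 0h and of L2H 4h, 8975 with array weights, and 1786 to 4871 without 1 library. Same-numbered H2L libraries deviated together with r = 0.104, 0.073 and 0.245, and pairs of library 3 with library 1 or 2 gave -0.167 to -0.138. Library 3 carries its own title tag (D1-14-5 at both times, against 1-6-5 and 2-6-5), whose meaning is not stated. Library 2 at 4h was more like library 1 at 0h (0.104) than library 2 (0.073), but libraries 1 and 2 are too alike for this to decide on pairing. In L2H same-numbered libraries gave -0.045, -0.044 and -0.182. Whether the numbers pair the samples is therefore not known, and the main fit took no pairing. A block of same-numbered libraries, in fits of only the groups compared, is given as an alternative. With the replicate block the counts were 2635 calls with 1340 higher, and 784 between the arms, where limma's adjusted p was 0.0513 for c43988_g1_i2, 0.115 for c48753_g2_i1 and 0.125 for c30669_g1_i1, so that the call on each was lost. The causes of these movements were not tested. No call of the 4 transcripts named for H2L was lost in 20 alternatives, but a call with libraries 1 and 2 averaged was a condition for naming them. The results limited to abundance classes and the L2H arm at 24h under other settings were chosen after seeing the data. Depth is unknown, so what it limits cannot be stated.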
